A study of Mus musculus with 16 samples.

Results

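10 genes of epithelial cell junctions and of the epithelial to mesenchymal transition (EMT) were followed across 4 transfection conditions, namely, Cldn6, Cldn7, Cldn3, Cldn4, Epcam, Cdh1, Cdh2, Krt8, Krt18 and Zeb2. They were taken from the arrays by gene name, checked through the accession of each probe, and the set was chosen by measured values of the arrays themselves, since Cldn6 is among the genes with the largest rises in siSfpq against control. The set therefore holds 10 genes, against 18248 genes tested over the whole series, and 9 of the 10 passed the filter on dim probes. Cldn4 did not pass. The cells were P19, a line of mouse embryonal carcinoma, and received a control transfection, a mimic of the microRNA let-7a (let-7a), siRNAs against the RNA-binding protein Sfpq (siSfpq), or both together (let-7a + siSfpq). The methods give a concentration of 24 nM, a harvest of RNA at 48 h, and a pool of 4 siRNAs. Each condition has 4 arrays of 1 colour, 16 in all. All values come from this single cell line after transient transfection, and the share of cells that took up the RNAs is not given in the sources used here.

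Epithelial cells are held together by tight junctions, whose strands are built of claudins, by adherens junctions built on cadherins, and by desmosomes, and their keratin filaments are anchored at the last of these. In the EMT, cells give up E-cadherin (Cdh1), Epcam and claudins, gain N-cadherin (Cdh2), and express transcription factors of the Zeb, Snai and Twist families. Zeb2 is known to repress Cdh1 by binding E-box sequences, and let-7a acts by pairing its seed with sites in target mRNAs.

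Levels are log2 intensities after quantile normalization, in which 1 unit is a doubling, and they are compared between conditions only, never between genes. Arrays 1 and 2 of each condition differed by a standard deviation of 0.15 to 0.19, against 0.26 to 0.64 for other array pairs and 0.13 for spots of 1 probe on 1 array, and were averaged and counted as 1 sample. Pairs with replicate 3 differed by 0.40 to 0.64 and pairs of replicates 1 or 2 with replicate 4 by 0.26 to 0.32. 3 samples per condition remained, given in the order replicates 1 and 2, replicate 3, replicate 4. Nothing in the labels says that they come from separate cultures, so the p-values measure only the spread between these samples. Between 33733 and 38464 of 59305 spots per array were well above background. Sfpq was at 12.07, 11.98 and 11.98 in control, at 11.90 to 12.04 with let-7a, at 10.55, 11.46 and 10.62 with siSfpq, and at 11.31, 11.49 and 11.41 with let-7a + siSfpq. It fell by 1.13 log2 units with siSfpq (standard error 0.19, limma adjusted p = 0.00734), and the fall was smallest in replicate 3, where it was -0.52 against -1.52 and -1.36. Without replicate 4 its log2 change was -1.02 and no longer called (limma adjusted p = 0.463). On top of let-7a, siSfpq left Sfpq lower by a log2 change of -0.58 (standard error 0.19) in 3 of 3 replicates, with a limma adjusted p of 0.142. Of 10 pluripotency genes that mark embryonal carcinoma cells, 9 were well above background on all 16 arrays, and Zfp42 was not well above background on any array of control.

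A let-7a mimic stands in for the mature miRNA, whose reference sequence is shown with its seed (bases 2 to 8) in capitals because the conditions turn on it. The sequence of the mimic itself is not given in the sources used here. Sequences are those of RefSeq on build GRCm38.p6, here chr13:48538239-48538260 on the minus strand.
mmu-let-7a-5p: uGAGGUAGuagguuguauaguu

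For the promoters, the 250 bases before each annotated start were searched for the E-box CAGGTG, which reads CACCTG on the other strand, so that a match on either strand was counted. These letters are those bound by factors of the Zeb and Snai families. Promoters of 8 members were in the table, and 6 of these genes held at least 1 match, against 19.4% of all 27025 genes. Cdh1 and Cdh2 had no entry, so their promoters were not searched. Cldn6, Cldn4, Epcam, Krt8 and Krt18 each held a match before their single start, and Cldn7 before the second of its 2 starts. Cldn3 and Zeb2 held no match in these windows. A match only describes the letters and is no evidence of binding. The windows of 3 genes that were higher with siSfpq are shown, with the E-boxes in capitals, 5′ to 3′ and ending at the base before the start (position -1). Cldn6 has its match at position -93 (chr17:23679115-23679364, plus strand), Epcam at -187 and -19 (chr17:87635729-87635978, plus strand), and Krt18 at -214 (chr15:102027966-102028215, plus strand).
Cldn6 promoter: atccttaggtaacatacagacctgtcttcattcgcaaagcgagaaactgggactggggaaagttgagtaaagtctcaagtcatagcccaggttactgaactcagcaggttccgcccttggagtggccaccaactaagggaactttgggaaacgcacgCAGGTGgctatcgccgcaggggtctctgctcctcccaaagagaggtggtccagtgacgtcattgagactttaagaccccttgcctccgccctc
Epcam promoter: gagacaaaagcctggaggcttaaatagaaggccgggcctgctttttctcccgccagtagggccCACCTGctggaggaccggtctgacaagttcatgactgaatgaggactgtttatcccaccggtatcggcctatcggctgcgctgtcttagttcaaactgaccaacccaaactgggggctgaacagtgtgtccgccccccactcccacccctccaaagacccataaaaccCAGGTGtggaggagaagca
Krt18 promoter: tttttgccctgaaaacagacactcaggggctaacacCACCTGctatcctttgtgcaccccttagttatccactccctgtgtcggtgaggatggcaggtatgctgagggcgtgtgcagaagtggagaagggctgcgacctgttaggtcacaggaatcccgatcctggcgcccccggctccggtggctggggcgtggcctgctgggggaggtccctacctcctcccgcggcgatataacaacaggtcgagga

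Among the claudins, Cldn6, a claudin of embryonic epithelia, had the widest range. Its level was 6.40, 6.98 and 6.36 in control and 5.93, 6.28 and 6.01 with let-7a. It reached 10.05, 8.93 and 9.79 with siSfpq and 9.02, 7.58 and 8.72 with let-7a + siSfpq. All 6 samples that received siSfpq thus lay above all 6 that did not. The order of the means was let-7a (6.07 ± 0.19, SD, n = 3), control (6.58 ± 0.35), let-7a + siSfpq (8.44 ± 0.76) and siSfpq (9.59 ± 0.59), and only the last 2 neighbours overlapped in their samples. Its single probe lies at chr17:23819027-23819086 on the build of the files, mm9, and was well above background on all 16 arrays.

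Cldn7, which seals tight junctions in many simple epithelia, followed a like course. It was at 7.80, 7.66 and 7.90 in control, at 8.04, 7.74 and 8.15 with let-7a, at 10.76, 9.10 and 10.97 with siSfpq and at 9.48, 8.53 and 9.61 with let-7a + siSfpq. The samples with siSfpq were again all above those without it, and replicate 3 was the lowest of the 3 in every condition. Its values come from a single probe (chr11:69781255-69781314, mm9), since the other was well above background on 1 of 16 arrays.

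Cldn3 differed little between the conditions. It was at 9.46, 8.94 and 9.38 in control and 9.61, 9.01 and 9.77 with let-7a. It had 9.21, 9.16 and 9.21 with siSfpq and 9.70, 9.17 and 9.74 with let-7a + siSfpq. All 4 conditions overlapped. For Cldn4, 1 probe was not well above background on any array, and the other was so on 0 of 4 arrays in control and with let-7a, 1 of 4 with siSfpq and 2 of 4 with let-7a + siSfpq, so that no level is given.

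**Figure D1:**
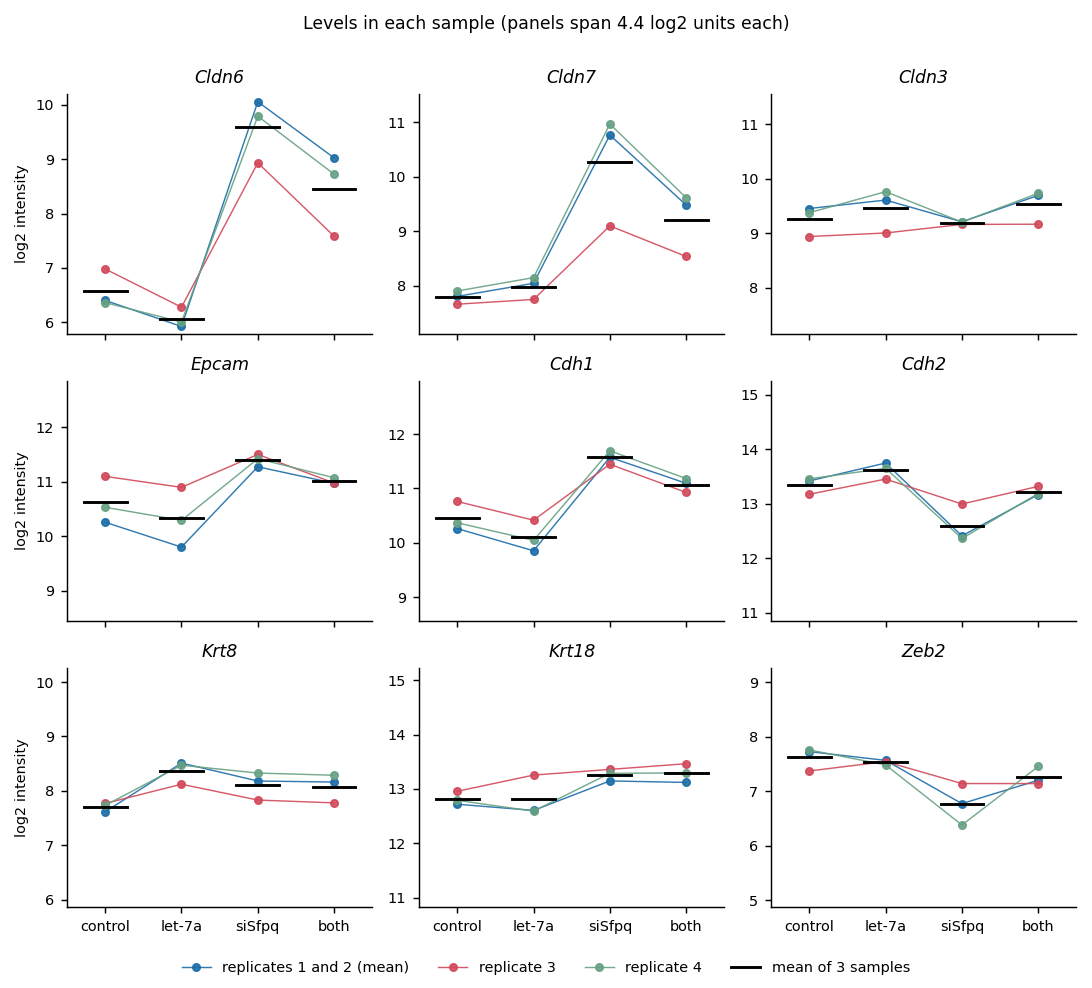
Log2 intensity (vertical axis) of the 9 measured genes in control, let-7a, siSfpq and let-7a + siSfpq (both). Points are samples, lines join samples of 1 replicate number, black bars are means of 3 samples, and each panel spans the same range. Cldn6, Cldn7, Epcam and Cdh1 have their highest means with siSfpq, and Cdh2 and Zeb2 their lowest.

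Epcam, a surface adhesion molecule of epithelia, was at 10.26, 11.10 and 10.53 in control and at 9.80, 10.90 and 10.29 with let-7a. In the siSfpq samples it was at 11.28, 11.50 and 11.42, and with let-7a + siSfpq at 10.97, 10.98 and 11.08. The 3 siSfpq samples lay above all others, while let-7a + siSfpq overlapped with control, whose highest sample was replicate 3.

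The cadherins went apart. E-cadherin (Cdh1) was at 10.26, 10.76 and 10.37 in control and 9.86, 10.42 and 10.05 with let-7a. It reached 11.57, 11.45 and 11.69 with siSfpq and 11.10, 10.93 and 11.18 with let-7a + siSfpq. The 2 conditions with siSfpq did not overlap with the 2 without, nor with each other. N-cadherin (Cdh2) was at 13.42, 13.17 and 13.46 in control and at 13.75, 13.45 and 13.65 with let-7a. It was at 12.41, 12.99 and 12.36 with siSfpq and at 13.17, 13.32 and 13.19 with let-7a + siSfpq. The siSfpq samples were the lowest 3 of the 12, and the other 3 conditions lay closer together. Cdh1 is read by 1 probe printed on 10 spots (chr8:109193812-109193871, mm9), and Cdh2 by 2 probes that gave nearly equal changes, -0.76 and -0.76 with siSfpq.

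Krt8 and Krt18, which pair in the filaments of simple epithelia, had their highest means in different conditions. Krt8 was at 7.62, 7.77 and 7.73 in control and 8.51, 8.12 and 8.47 with let-7a. It reached 8.18, 7.83 and 8.33 with siSfpq and 8.16, 7.78 and 8.29 with let-7a + siSfpq. It was thus above control in every other condition, with the highest mean (8.37 ± 0.21, n = 3) with let-7a. Krt18 was at 12.72, 12.96 and 12.79 in control and 12.61, 13.26 and 12.59 with let-7a, and at 13.15, 13.36 and 13.29 with siSfpq and 13.12, 13.46 and 13.29 with let-7a + siSfpq. Its means with siSfpq (13.27 ± 0.11) and with let-7a + siSfpq (13.29 ± 0.17) lay within each other's spread.

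Zeb2, the EMT repressor of the set, was at 7.73, 7.37 and 7.76 in control and 7.56, 7.54 and 7.48 with let-7a. It was down to 6.77, 7.14 and 6.38 with siSfpq and 7.20, 7.14 and 7.45 with let-7a + siSfpq. It was lowest with siSfpq in replicates 1 and 2 and in replicate 4, and shared its lowest value of 7.14 between the 2 siSfpq conditions in replicate 3. Its value averages 3 probes. With siSfpq against control they changed by -1.39, -0.99 and -0.19, and the last is dim, being well above background on 3 of 4 control and 2 of 4 siSfpq arrays. Over the other 2 probes the change was -1.19 in place of -0.85. Both of these probes were lowest with siSfpq in replicate 3 as well. They were at 6.16 and 10.93 there, against 6.56 and 11.11 with let-7a + siSfpq, so the shared value of 7.14 holds only with the dim probe averaged in.

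The contrast of siSfpq against control is the one by which the set was chosen, and it is therefore described without a test. Log2 changes were 3.01 for Cldn6, 2.49 for Cldn7, 1.11 for Cdh1, 0.77 for Epcam, 0.44 for Krt18 and 0.41 for Krt8. Cldn3 was at -0.06, Cdh2 at -0.76 and Zeb2 at -0.85. Samples of the 2 conditions did not overlap for 8 of the 9 genes, as for 29.5% of all genes. Cldn6 ranked 22 among all 18248 genes by its rise, between neighbours at 3.04 and 2.99. For let-7a + siSfpq against control, which shares the control samples, 5 of 9 did not overlap, against 20.2% of all genes, and the changes were 1.86 for Cldn6, 1.42 for Cldn7, 0.60 for Cdh1, 0.47 for Krt18, 0.38 for Epcam and 0.37 for Krt8. They were 0.27 for Cldn3, -0.13 for Cdh2 and -0.35 for Zeb2. Cdh2 was at -0.25, 0.15 and -0.27 by replicate. The brighter Zeb2 probes were at -0.53 and -0.60, and its dim probe at 0.08. Without replicate 3 the changes with siSfpq against control were 3.54 for Cldn6, -1.05 for Cdh2 and -1.17 for Zeb2, and Epcam with both was at 0.63.

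Whether siSfpq moved these genes also in cells that received let-7a was tested on samples outside the contrast that chose the set. Since the set was chosen with earlier results of these data known, the test is not independent of that choice. In let-7a + siSfpq against let-7a, both Cldn6 and Cdh1 rose. The change of Cldn6 was 2.37 log2 units or 5.17-fold (standard error 0.37, limma adjusted p = 0.0103), and that of Cdh1 0.96 or 1.95-fold (standard error 0.16, limma adjusted p = 0.0141). Both were higher in 3 of 3 replicates. Cldn7 (1.23, standard error 0.42), Epcam (0.68, standard error 0.25) and Krt18 (0.47, standard error 0.16) were also higher in 3 of 3 replicates, with limma adjusted p of 0.153, 0.193 and 0.160. Cdh2 was at -0.39 (95% interval -0.74 to -0.05, limma adjusted p = 0.226), Krt8 at -0.29 (-0.68 to 0.10) and Cldn3 at 0.07 (-0.40 to 0.55). Zeb2 was at -0.27 (-0.69 to 0.16, limma adjusted p = 0.589), and without its dim probe at -0.47 (limma adjusted p = 0.198). In this comparison 2 of 9 genes were called, both higher, against 3.17% of all genes (0.964% higher and 2.21% lower), and the samples of the 2 conditions did not overlap for 6 of 9, against 23.2% of all genes. An exact permutation test of 3 samples against 3 cannot go below p = 0.1, a value that 6 of the 9 genes reach, 4 of them not called. With the replicate number as a block, limma called 5 genes, against 13.2% of all genes, since Cldn7 (adjusted p = 0.0177), Epcam (0.0330) and Krt18 (0.0159) joined Cldn6 and Cdh1. Without replicate 3, which leaves the arrays behind the study's own log ratios, limma called 6 genes, Cdh2 being the further one, against 26.8% of all genes. Without replicate 4 it called none of the members, with 2 at an unadjusted p under 0.05, and none of all genes.

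**Figure D2:**
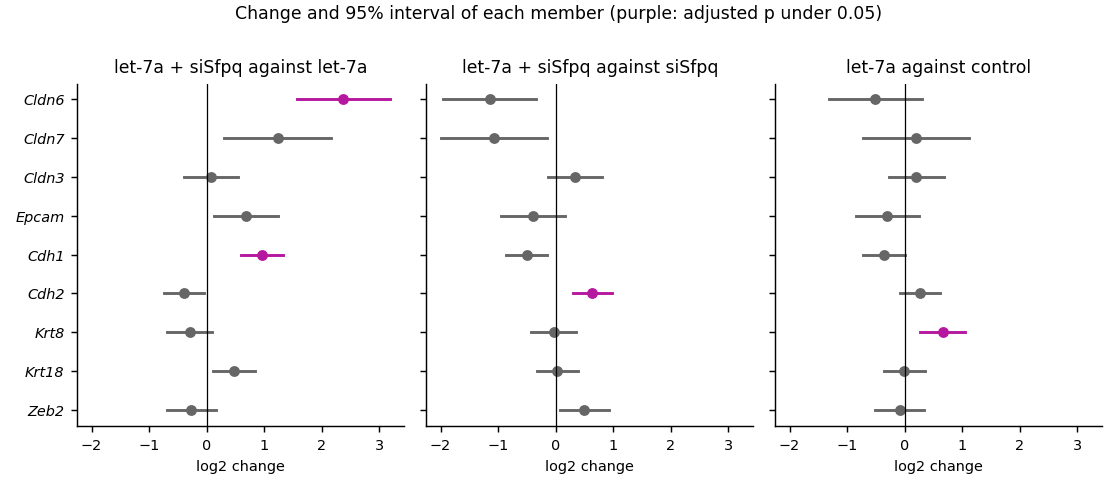
Log2 change (horizontal axis) of each gene in the 3 tested comparisons, with points for the estimate and bars for its 95% interval from the limma fit. Purple marks an adjusted p under 0.05, which holds for Cldn6 and Cdh1 in let-7a + siSfpq against let-7a, Cdh2 in let-7a + siSfpq against siSfpq, and Krt8 in let-7a against control.

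With let-7a alone, Krt8 was the 1 gene of the set called, a share of the 9 close to that over all genes. Its change against control was 0.66 or 1.58-fold (standard error 0.18, limma adjusted p = 0.0475, higher in 3 of 3 replicates), and its 2 probes changed by 0.60 and 0.72. It was 1 of 9 genes called, against 6.99% of all genes (4.93% higher and 2.07% lower), and samples did not overlap for 2 of 9, against 30.1%. The call lies close to the threshold and was lost without replicate 1 (adjusted p = 0.0565), without replicate 4 (adjusted p = 0.557, with 0.011% of all genes called) and under 5 of the other planned settings. Cldn6 was at -0.51 (95% interval -1.32 to 0.29) and Cdh1 at -0.36 (-0.72 to 0.00), each lower in 3 of 3 replicates and not called. The remaining changes lay between -0.30 (Epcam) and 0.27 (Cdh2). Without replicate 3, limma called 4 genes, against 30.2% of all genes, namely, Krt8, Cdh1 (-0.37), Cdh2 (0.26) and Cldn3 (0.27). The comparison shares its control samples with the contrast that chose the set.

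When let-7a was added to siSfpq, Cdh2 was the 1 gene of the set called, a share of the 9 close to that over all genes. In let-7a + siSfpq against siSfpq, Cdh2 rose by 0.64 or 1.55-fold (standard error 0.16, limma adjusted p = 0.0301, higher in 3 of 3 replicates), a call that was lost with 75th percentile scaling (0.49, adjusted p = 0.0855, where Cdh1 was called instead at -0.59 with 0.0422), with no filter on dim probes (0.0581), with only the 2 conditions compared (0.129), without replicate 4 (0.629), without replicates 1 and 2 (0.512) and under a minimum log2 change of 1. Cldn6 was at -1.15 (standard error 0.37, adjusted p = 0.0681 by limma), Cldn7 at -1.07 (standard error 0.42, adjusted p = 0.123) and Cdh1 at -0.50 (standard error 0.16, adjusted p = 0.0716), each lower in 3 of 3 replicates. Epcam was at -0.39 (95% interval -0.95 to 0.16), Cldn3 at 0.34 (-0.13 to 0.81), Krt8 at -0.04 (-0.43 to 0.35) and Krt18 at 0.03 (-0.33 to 0.39). Zeb2, averaged over all its probes, was at 0.50 (0.07 to 0.93, limma adjusted p = 0.119). This average was higher in 2 of 3 replicates, and at 0.21 without replicate 4. Without its dim probe Zeb2 was at 0.62 (limma adjusted p = 0.0461), and both other probes were higher in every replicate. Of the 9 genes, 1 was called, against 10.3% of all genes (6.19% higher and 4.14% lower), and samples did not overlap for 3, against 25.3%. When the replicate was a block, 4 were called, against 33.4% of all genes, since Cldn6 (adjusted p = 0.0329), Cldn7 (0.0171) and Cdh1 (0.0302) passed. Without replicate 3 limma called 6, against 47.2% of all genes, and without replicate 4 it called none, with 1 at an unadjusted p under 0.05. The samples of siSfpq also entered the choice of the set. Sfpq itself was higher by 0.52 in let-7a + siSfpq than in siSfpq (standard error 0.19, limma adjusted p = 0.0994), and the part of this difference in the changes above was not tested.

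The size of the changes differed between replicates. For siSfpq against control, 8 of 9 genes changed least in replicate 3, where the median absolute change was 0.40, while replicates 1 and 2 had 1.01 and replicate 4 had 1.10. For let-7a + siSfpq against let-7a, 6 of 9 did so, with medians of 0.34, 0.58 and 0.70 in the same order. Sfpq itself also changed least in replicate 3 under siSfpq alone, whereas on top of let-7a its log2 changes were -0.73, -0.50 and -0.49 in replicates 1 and 2, 3 and 4. Cldn6 was higher by 3.65, 1.95 and 3.42 with siSfpq in replicates 1 and 2, 3 and 4, and on top of let-7a by at least 1.30, its value in replicate 3. It was thus higher in each replicate, whereas the change of Cdh2 with siSfpq shrank to -0.18 in replicate 3 from -1.01 and -1.10. Replicates 1 and 2 lay on 1 slide and replicates 3 and 4 on another, each with all 4 conditions.

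**Figure D3:**
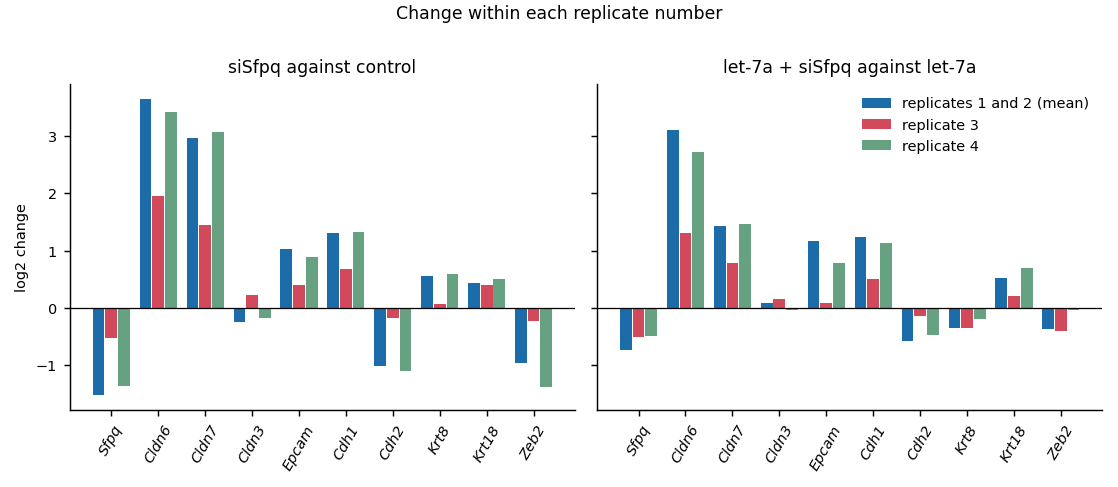
Log2 change (vertical axis) of Sfpq and of the 9 genes within each replicate number, for siSfpq against control (left) and let-7a + siSfpq against let-7a (right). Bars start at 0. Replicate 3 has the smallest bar for 8 of the 9 genes on the left and 6 of 9 on the right.

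Other genes of junctions, of epithelial identity and of the EMT were taken from 8 lists, leaving out the 10 themselves. With siSfpq against control, 31 of those tested (29.0%) were called by limma, 19 higher and 12 lower, against 13.7% of all genes (6.3% higher and 7.35% lower). A replicate block gave 60, against 37.8% of all genes, and without replicate 4 none, with 25 at an unadjusted p under 0.05. Of 9 desmosome genes 4 were called higher and none lower, with a median change of 0.82, and of 15 epithelial regulators and surface genes 7 were called higher and none lower, with a median of 0.79, beside a median of 0.01 over all genes. Of 25 tight junction genes 6 were called higher and 2 lower, with a median of 0.21. Of 16 adherens junction genes 4 were called lower and none higher (median -0.05), as were 2 of 8 other claudins, Cldn2 and Cldn5 (median -0.08). Of the EMT factors 2 of 16 were called higher and 3 lower (median -0.10), and 1 of 17 mesenchymal genes was called lower (median -0.32). Krt19, the single other keratin tested, was not called (0.32). These counts and medians include genes that passed the filter on dim probes only through a brighter condition. Ovol1 and Elf3, epithelial transcription factors, and Ocln, the tight junction protein occludin, were called higher although they were not well above background on any control array. They were so on 3, 1 and 2 of the 4 siSfpq arrays. Ovol1 was at least 1.82-fold higher, and no fold is given for Elf3 and Ocln, which most or some of the siSfpq arrays did not measure either. Cldn5, called lower, was well above background on 1 of 4 siSfpq arrays. Among the 99 listed genes well above background on all 16 arrays, 16 were called higher and 10 lower, with 5 of 12 epithelial regulators and surface genes (median 0.68) and 5 of 24 tight junction genes (median 0.19) higher.

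From the same lists, 6 of the tested genes (5.61%) were called when siSfpq came on top of let-7a, against 3.17% of all genes, 4 higher and 2 lower. Esrp2, an epithelial splicing regulator, was at 3.80, 4.65 and 4.75 with let-7a and at 6.46, 5.58 and 6.96 with let-7a + siSfpq, a change of 1.94 (limma adjusted p = 0.0248). St14, the gene of the membrane protease matriptase, went from 5.20, 5.51 and 5.41 to 7.80, 6.26 and 7.56, a change of 1.83 (limma adjusted p = 0.0330). Crb3, which sets apical polarity, rose by 1.80 (limma adjusted p = 0.0357), and Perp, a desmosome protein, by 1.28 (limma adjusted p = 0.0244). For each of these genes all samples with siSfpq lay above those without it. The genes that fell were the catenins Ctnna2 and Ctnnd2, both best known from neurons, with log2 changes of -1.73 (limma adjusted p = 0.0103) and -0.59 (limma adjusted p = 0.0443). A replicate block gave 37 called genes of these lists, against 13.2% of all genes, and without replicate 4 none, with 14 at an unadjusted p under 0.05.

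**Figure D4:**
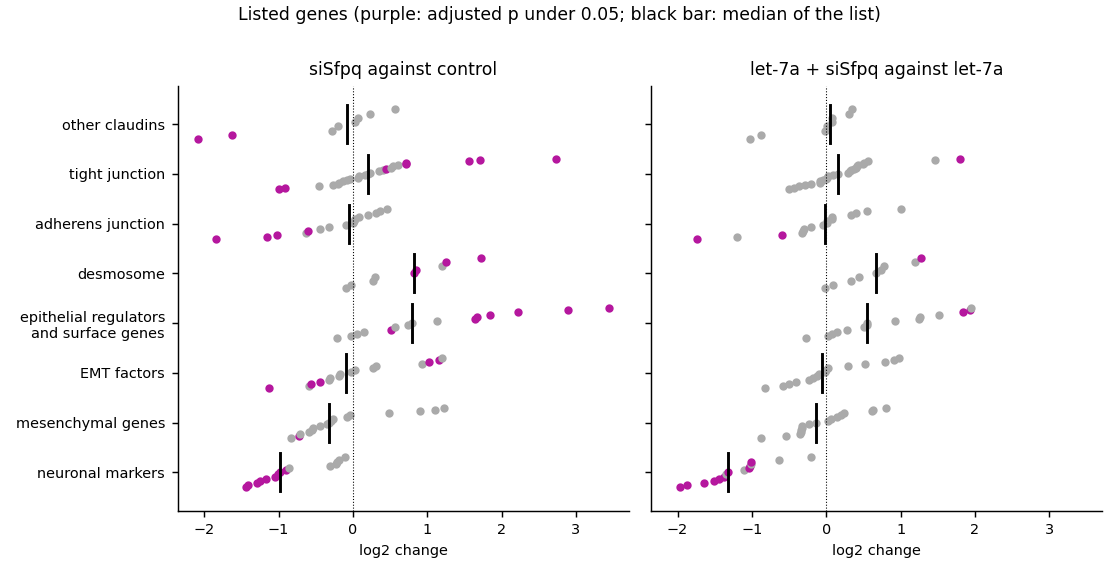
Log2 change (horizontal axis) of each listed gene of 7 lists and of the neuronal markers, by list, for siSfpq against control (left) and let-7a + siSfpq against let-7a (right). Purple points have an adjusted p under 0.05, and black bars are medians of a list. The desmosome and epithelial regulator lists have medians of 0.82 and 0.79 on the left, and the neuronal markers -0.98.

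Among 8 other claudins, 16 EMT factors and 17 mesenchymal genes, limma called none in this comparison, of which 1, 6 and 4 had an unadjusted p under 0.05. The largest changes among them were those of Cldn5 (-1.03) and Cldn2 (-0.88), of Tgfb1 (0.97) and Hmga2 (0.91), and of Cdh6 (-0.87) and S100a4 (0.80). Krt19 was at 0.26 and not called. Among epithelial genes chosen after their values were seen, 3 rose with siSfpq against control, namely, the splicing regulator Esrp1 (3.44, limma adjusted p = 0.00533), the transcription factor Grhl2 (2.89, limma adjusted p = 0.0241) and Dsg2, a desmosomal cadherin (1.73, limma adjusted p = 0.0218). On top of let-7a they were at 1.95, 1.26 and 1.19 and were not called (limma adjusted p = 0.0638, 0.430 and 0.156). Another pair of EMT factors, also chosen after their values were seen, moved in opposite directions with siSfpq against control, Zeb1 by -0.57 (limma adjusted p = 0.0173) and Snai1 by 1.16 (limma adjusted p = 0.0104). For let-7a against control 8 of the listed genes (7.48%) were called, 6 higher and 2 lower, against 6.99% of all genes, and the 2 lower ones were Hmga2 (-1.40), a known let-7 target, and Snai1 (-0.95). Elf3 is among the 6, and was well above background on no control array and on 4 of 4 with let-7a, at least 1.57-fold higher. For let-7a + siSfpq against siSfpq 13 (12.1%) were called, 10 higher and 3 lower, against 10.3% of all genes. Both shares lie near those of all genes.

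Markers of other cell types were also followed, and their lists did not all move with these genes. All 15 neuronal markers were well above background in every condition. Their summed level, as log2 of the summed intensities, was 15.56 to 15.87 in control, 16.15 to 16.63 with let-7a, 14.87 to 15.17 with siSfpq and 15.44 to 15.57 with let-7a + siSfpq. Of the 15, 9 were called lower with siSfpq against control, and 10 lower in let-7a + siSfpq against let-7a, beside 7.35% and 2.21% of all genes called lower, with the largest changes for Nefl (-1.97), Nefm (-1.87), Tubb3 (-1.65) and Gap43 (-1.51), genes of the neuronal cytoskeleton and growth cone. In let-7a against control 10 were called higher (median 1.40), beside 4.93% of all genes. In let-7a + siSfpq against siSfpq 6 were called higher (median 0.96), beside 6.19%. Of 9 trophoblast markers 6 were tested, and 3 of these were called higher with siSfpq against control, or 2 of the 5 well above background on all arrays, beside 6.3% of all genes called higher. Cdx2, chosen after its values were seen, which was not well above background on any array of control and was so on 4 of 4 with siSfpq, was at least 3.43-fold higher, and it passed the filter only through siSfpq. In let-7a + siSfpq it was well above background on 1 of 4 arrays, and Eomes was the trophoblast marker called against let-7a (0.96, limma adjusted p = 0.0462). The summed level of this list was 11.13 to 11.34 in control, 11.27 to 11.74 with let-7a, 11.58 to 12.34 with siSfpq and 11.38 to 11.95 with let-7a + siSfpq. A fold given as a lower bound sets the brighter mean against the dimmest signal still well above background. Of 12 extraembryonic endoderm markers, Sox17, Afp and Ttr were not well above background on any array of control or of siSfpq, and the summed level was 15.10 to 15.16 in control, 14.88 to 15.14 with let-7a, 15.02 to 15.21 with siSfpq and 15.26 to 15.57 with let-7a + siSfpq. The last of these lay above all samples of the other conditions. In this list Lama1, a laminin chain, rose by 0.85 when siSfpq came on top of let-7a (limma adjusted p = 0.0392). It was the 1 gene called there of the 9 tested, beside 0.964% of all genes called higher. With siSfpq alone the mean of Lama1 was 12.64, against 12.70 in control. The summed level of the pluripotency markers was 15.96 to 16.18 in control, 15.35 to 15.83 with let-7a, 16.20 to 16.36 with siSfpq and 15.83 to 15.96 with let-7a + siSfpq. Among them Utf1 rose in let-7a + siSfpq against let-7a by 0.88 (limma adjusted p = 0.0256). It too was the 1 gene called there of the 9 tested, beside 0.964% of all genes called higher. With siSfpq against control 2 of these 9 were called higher and 1 lower (median 0.08). Fewer cells of a type and less RNA per cell cannot be told apart in these bulk samples, and the part of such cells in the changes of the 10 genes was not tested.

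The genes with a course most like that of Cldn6 over the 12 samples, among 15704 genes well above background on all 16 arrays, were St14 (Pearson's correlation 0.99), Bspry (0.99), Entpd2 (0.98), Ascl2 (0.98) and Mkrn1 (0.98). Among the set itself the correlation with Cldn6 was 0.96 for Cdh1, 0.93 for Cldn7, 0.81 for Epcam and 0.68 for Krt18. It was 0.11 for Krt8, -0.11 for Cldn3, -0.83 for Zeb2 and -0.90 for Cdh2. The 12 samples fall into 4 conditions and share replicate numbers, so that these values are a description only.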

How the data were processed

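P19 RNA was hybridised to 16 Agilent 1-colour arrays, 4 per condition, and groups were taken from the sample titles. The authors deposited scanner intensities from Agilent Feature Extraction, and log2 values that they had quantile normalized with limma, which were used here as an alternative. Per the file headers, probe positions are on mm9. The processed intensity was set on the log2 scale and quantile normalized, outlier spots were left out, and spots of a probe were averaged. Quantile normalization forces equal distributions, so changes are relative to all genes. A probe was kept where some condition had it well above background on each of its 4 arrays, 39 probes with a missing value were dropped, and probes of a gene were averaged, which left 18248 genes. Arrays 1 and 2 of a condition were averaged, giving 12 samples, 3 per condition. The methods name 3 replicates.

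All conditions were fitted together with limma 3.58.1 in R 4.3.3 (lmFit, eBayes with an intensity trend). Benjamini-Hochberg adjusted p-values over all genes were called under 0.05. Precision is limited by the number of arrays. Samples with the same replicate number deviated together, with correlations of 0.28 to 0.71 over 18 pairs of samples, so that the numbers pair the samples; the pairing comes from these data, since the labels state no shared batch. On simulated data for let-7a + siSfpq against let-7a (18248 genes), 116 of 200 genes changed by a log2 change of 1 were recovered, and 10 unchanged genes were called. The simulated samples varied independently of each other, unlike the measured ones, so these counts need not carry over to the data.

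The members and lists were chosen with earlier results of these data known. Genes named in the text are the members, Sfpq, from each list up to 4 called genes with the largest change in let-7a + siSfpq against let-7a (or up to 2 tested genes where none was called), and the 5 genes most correlated with Cldn6. Esrp1, Grhl2, Dsg2, Zeb1, Snai1, Cdx2, Ovol1, Elf3 and Ocln fall outside this rule and were named after their values were seen, and Zfp42, Sox17, Afp and Ttr are named as listed markers not well above background. Alternatives were 75th percentile scaling, normexp background correction (offset 50), other filters on dim probes, the brightest probe, the slide or replicate as a block, no trend, 16 separate arrays, only the 2 conditions compared, a minimum change, and leaving out replicates. Promoter and miRNA sequences are from RefSeq (GRCm38.p6), and 31837 spots were named through an accession.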

Additional observations from a re-analysis of the deposited data

Results flagged for a closer look

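The members, the genes named from the lists by rule, and those most correlated with Cldn6 were screened for effects of opposite sign. For 3 of these genes, every replicate moved one way in 1 setting and the opposite way in the other. The share of all genes that do so was not computed, so the count is a description only. The differences below were not tested. The effect of let-7a on Cldn7 was 0.24, 0.09 and 0.25 without siSfpq and -1.29, -0.56 and -1.35 with it, a difference of -1.26 log2 units. The effect of let-7a on Krt8 was 0.89, 0.35 and 0.74 without siSfpq and -0.02, -0.05 and -0.04 with it, a difference of -0.70. Seen from the other side, the effect of siSfpq on Krt8 was 0.57, 0.06 and 0.59 without let-7a and -0.35, -0.34 and -0.18 with it, which is the same difference of -0.70. These values are means of the 2 Krt8 probes. By the brighter probe the effect of let-7a with siSfpq was 0.11, -0.04 and 0.08, so that it was not opposite in every replicate. By the dimmer probe the effect of siSfpq was 0.69, -0.07 and 0.71 without let-7a and -0.39, -0.47 and 0.01 with it. Each of the 2 reversals of Krt8 thus held in every replicate by only 1 of its 2 probes. The effect of let-7a on Ctnnd2, a catenin best known from neurons, was -0.11, -0.06 and -0.20 without siSfpq and 0.45, 0.10 and 0.36 with it, a difference of 0.43.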

How the results depend on the processing

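In let-7a + siSfpq against let-7a, Cldn6 and Cdh1 kept their direction under all 17 alternatives run. Both lost their call without replicate 4 (adjusted p = 0.699 and 0.701) and without replicates 1 and 2 together (0.615 for both), an alternative chosen after seeing the data, and Cdh1, at 0.96, also under a minimum log2 change of 1. The number of the 9 genes called there, 2 in the report, was 5 with the replicate block (13.2% of all genes), 6 with 16 separate arrays (14.2%), 1 with a minimum log2 change of 1 (1.78%), 0 without replicates 1 and 2, and 0 to 6 when 1 replicate was left out. For let-7a against control, 1 in the report, it was 0 with 75th percentile scaling, either other filter on dim probes, the authors' values, the minimum change, and without replicates 1 and 2, and 0 to 4 when 1 replicate was left out. For let-7a + siSfpq against siSfpq, also 1, it was 0 with no filter, with only the 2 conditions compared, with the minimum change and without replicates 1 and 2, 2 with the filter on all 16 arrays, 4 with the replicate block (33.4% of all genes), 5 with 16 separate arrays (32.4%), and 0 to 6 when 1 replicate was left out. The replicate block changed no other call of a member. The fall of Sfpq in siSfpq against control lost its call with only the 2 conditions compared (adjusted p = 0.0637), without replicate 4 (0.463) and without replicates 1 and 2 (0.420).

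Of the listed genes, no filter called 1 in let-7a + siSfpq against let-7a, 5 in let-7a against control and 18 in siSfpq against control, beside 1.14%, 3.81% and 5.51% of all genes. The replicate block gave 37, 25 and 60, and 36 in let-7a + siSfpq against siSfpq, beside 13.2%, 21.7%, 37.8% and 33.4%. Separate arrays gave 34, 23, 56 and 40 in the same order, against 14.2%, 19.8%, 36.0% and 32.4% of all genes. The minimum change gave 4 in let-7a against control, 19 in siSfpq against control and 6 in let-7a + siSfpq against siSfpq, against 3.03%, 4.94% and 3.55% of all genes. With only the 2 conditions compared, 1 was called in let-7a + siSfpq against siSfpq (1.21% of all genes) and 0 in siSfpq against control (0% of all genes), where 51 had an unadjusted p under 0.05. Without replicates 1 and 2 limma called 0 in all 4 comparisons, with 12 to 29 at an unadjusted p under 0.05. Leaving out 1 replicate gave 0 to 58, 0 to 36, 0 to 66 and 0 to 57, the highest without replicate 3, where 26.8%, 30.2%, 49.3% and 47.2% of all genes were called, and the lowest without replicate 4, where at most 0.011% were. Over all genes, 579 were called in let-7a + siSfpq against let-7a, 2406 with the replicate block and 4886 without replicate 3.

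Changes that turned sign were not called in either form. Cldn7 in let-7a against control was -0.43 with no filter, where its dim probe is averaged in. Krt18 in let-7a + siSfpq against siSfpq was -0.13 with 75th percentile scaling and ran from -0.010 to 0.042 when 1 replicate was left out. Krt18 in let-7a against control was 0.0047 with the authors' values and 0.050 without replicates 1 and 2, and ran from -0.16 to 0.092 when 1 replicate was left out. Krt8 in let-7a + siSfpq against siSfpq was 0.051 with the brightest probe and ran from -0.079 to 0.0047, and Zeb2 in let-7a against control from -0.22 to 0.0056. Cldn7 against control was at 1.40 with siSfpq and 0.62 with both when no filter was set, Cldn6 with siSfpq was at 2.36 with normexp, and Zeb2 with both was at -0.60 with its brightest probe. The shift of Cldn7 comes from averaging in its dim probe, which was at 0.31 with siSfpq and -0.19 with both. That of Zeb2 is the value of its brightest probe alone. The cause of the remaining shifts was not tested.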
